A study of Mus musculus with 8 samples.

Results

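The 34 genes described here carry glucose into the cell, break it down to lactate, or belong to the response to low oxygen. They were chosen by symbol, and all 34 symbols were found among the 55536 genes counted in HCA-1 tumors. HCA-1 is 1 line of murine hepatocellular carcinoma (HCC) cells, and each tumor grew from cells injected beneath the liver capsule of male C3H mice. The labels give an age of 6 to 8 weeks, and the younger age in the study's methods is stated for the mice as purchased. On day 17 the mice received a single intravenous injection of saline (labelled Control, n = 4, replicates 1, 3, 4 and 5) or of PFSUV-IMQ (labelled IMQNP, n = 4, replicates 1 to 4), and tumors were taken after 3 h for mRNA sequencing. PFSUV-IMQ is imiquimod (IMQ), an agonist of toll-like receptor 7, enclosed in phospholipid-free small unilamellar vesicles, and no group with empty vesicles is among these samples. The comparison asked how the treatment changed the tumor transcriptome at this early time. Each library is taken as a separate tumor. The labels do not say how many animals gave them, so p-values measure the spread between these samples.

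Glycolysis converts glucose to pyruvate in a chain of enzymes, and lactate dehydrogenase turns pyruvate into lactate, which leaves the cell through monocarboxylate transporters. When oxygen is scarce, the prolyl hydroxylases encoded by Egln1 and Egln3 no longer mark the alpha subunits of hypoxia-inducible factor (HIF) for degradation, and HIF then drives transcription of many genes in this group by binding a short core element in their promoters. Many tumors keep these genes active even when oxygen is present. HIF-1 alpha is controlled largely at the protein level, so its mRNA is a poor gauge of its activity, and none of the values below measures protein, oxygen or lactate.

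The HIF core element was searched as ACGTG or GCGTG on both strands, in RefSeq promoter windows of 300 bases (250 before and 50 after a transcription start, GRCm38.p6). Of the 34 genes, 32 had a window, and 30 of these had a match in at least 1 window. By window, 37 of 47 (78.7%) held a match, against 43.8% of all 32851 windows of the same length. Both searched sequences contain CG, and the windows compared were not matched for CG content. Some windows of the same gene overlap, as in Pfkm, Aldoa and Eno1, so the 47 windows are not independent. The 250 bases before the start are printed for the 4 genes with the smallest p-values between groups. For Pfkfb3 the printed window 2 held 4 matches in its 300 bases, whereas window 1, not printed, held 1. They are written 5′ to 3′ on the strand of the gene, with each HIF core match in capitals. The palindrome CACGTG counts as 2 overlapping matches, and a match is a description of letters, not a binding site.
Hk2 (chr6:82774455-82774704, minus strand): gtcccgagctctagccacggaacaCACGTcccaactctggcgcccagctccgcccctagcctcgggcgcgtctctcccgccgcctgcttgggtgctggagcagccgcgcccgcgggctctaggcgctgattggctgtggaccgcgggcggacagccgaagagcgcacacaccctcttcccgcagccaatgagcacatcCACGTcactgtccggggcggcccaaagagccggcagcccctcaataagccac
Pfkfb3 (the second of its windows, chr2:11502091-11502340, minus strand): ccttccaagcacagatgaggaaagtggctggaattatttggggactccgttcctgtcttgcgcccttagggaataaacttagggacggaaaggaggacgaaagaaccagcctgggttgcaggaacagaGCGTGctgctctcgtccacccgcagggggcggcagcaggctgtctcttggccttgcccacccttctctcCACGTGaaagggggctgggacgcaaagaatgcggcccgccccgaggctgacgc
P4ha2 (chr11:54100674-54100923, plus strand): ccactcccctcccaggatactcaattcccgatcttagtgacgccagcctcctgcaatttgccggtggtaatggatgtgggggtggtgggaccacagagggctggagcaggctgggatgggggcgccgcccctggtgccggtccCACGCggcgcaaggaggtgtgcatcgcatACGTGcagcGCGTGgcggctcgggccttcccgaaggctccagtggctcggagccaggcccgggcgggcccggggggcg
Pfkp (chr13:6648772-6649021, minus strand): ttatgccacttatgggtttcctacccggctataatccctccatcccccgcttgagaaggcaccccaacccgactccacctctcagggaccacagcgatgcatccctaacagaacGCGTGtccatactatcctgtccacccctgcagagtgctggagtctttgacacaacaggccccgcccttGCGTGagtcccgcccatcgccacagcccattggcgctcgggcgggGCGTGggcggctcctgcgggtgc
The Hk2 and P4ha2 stretches overlap no exon in GENCODE M21, whereas 11 bases of the Pfkfb3 stretch and 6 bases of the Pfkp stretch do. The last match ended 48 bases before the start in Hk2 and Pfkfb3, 65 in P4ha2 and 19 in Pfkp.

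Counts per tumor totalled 16883911 to 27687756, and the lowest count of any member in any tumor was 133 (Car9), so counting error was small beside the spread between tumors. As a check of the labels, the 10 interferon-response genes that the study names were called higher in all 10 cases, with log2 fold changes of 5.03 to 7.28 in edgeR's quasi-likelihood test, though that list was picked from these same tumors. Of the markers of the labelled cell type, the simple-epithelial keratins Krt8 and Krt18 lay at 444 to 941 and 550 to 1256 CPM (a gene's counts relative to all counts of its library, scaled between tumors by TMM), while the oncofetal markers Afp (at most 6.08 CPM), H19 (at most 4.10 CPM), Gpc3 (at most 1.99 CPM) and Igf2 (at most 0.0551 CPM) were low or absent.

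The tumors differed in hepatocyte RNA. The summed level of 14 hepatocyte markers, all of them detected, was 14247, 18848, 45274 and 5999 CPM in saline tumors 1, 3, 4 and 5. In PFSUV-IMQ tumors 1 to 4 it was 9188, 50498, 13945 and 13661 CPM. Saline tumor 4 and PFSUV-IMQ tumor 2 thus stood far above the other 6, and Alb, the serum albumin gene, spanned 2938 to 22736 CPM over the tumors. In bulk RNA, fewer cells of a type and less RNA per cell cannot be told apart. Values without 1 or both of these tumors are given beside the results that moved most with them.

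Saline tumor 4 had low levels of most of the 34 genes. It was the lowest of the 8 tumors for 19 members (55.9%), compared with 10.9% of all 15998 tested genes, and it lay below the mean of the other saline tumors for 31 members, compared with 49.1% of all genes. Its level was 0.658 times that mean at the median member, while the median ratio over all genes was 1.01. The lowest ratio belonged to Adm (0.213) and the highest to Pfkfb4 (1.40). At the other end, PFSUV-IMQ tumor 1 was the highest of the 8 tumors for 14 members (41.2%, against 9.16% of all genes) and PFSUV-IMQ tumor 2 for 11 (32.4%, against 20.2%). Saline tumor 4 had the second highest hepatocyte sum, and PFSUV-IMQ tumor 2 the highest. At the median member, PFSUV-IMQ tumor 2 lay at 1.05 times the mean of the other PFSUV-IMQ tumors, beside a median of 0.971 over all genes. The part of hepatocyte RNA in the levels of these 34 genes was not tested.

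**Figure D1:**
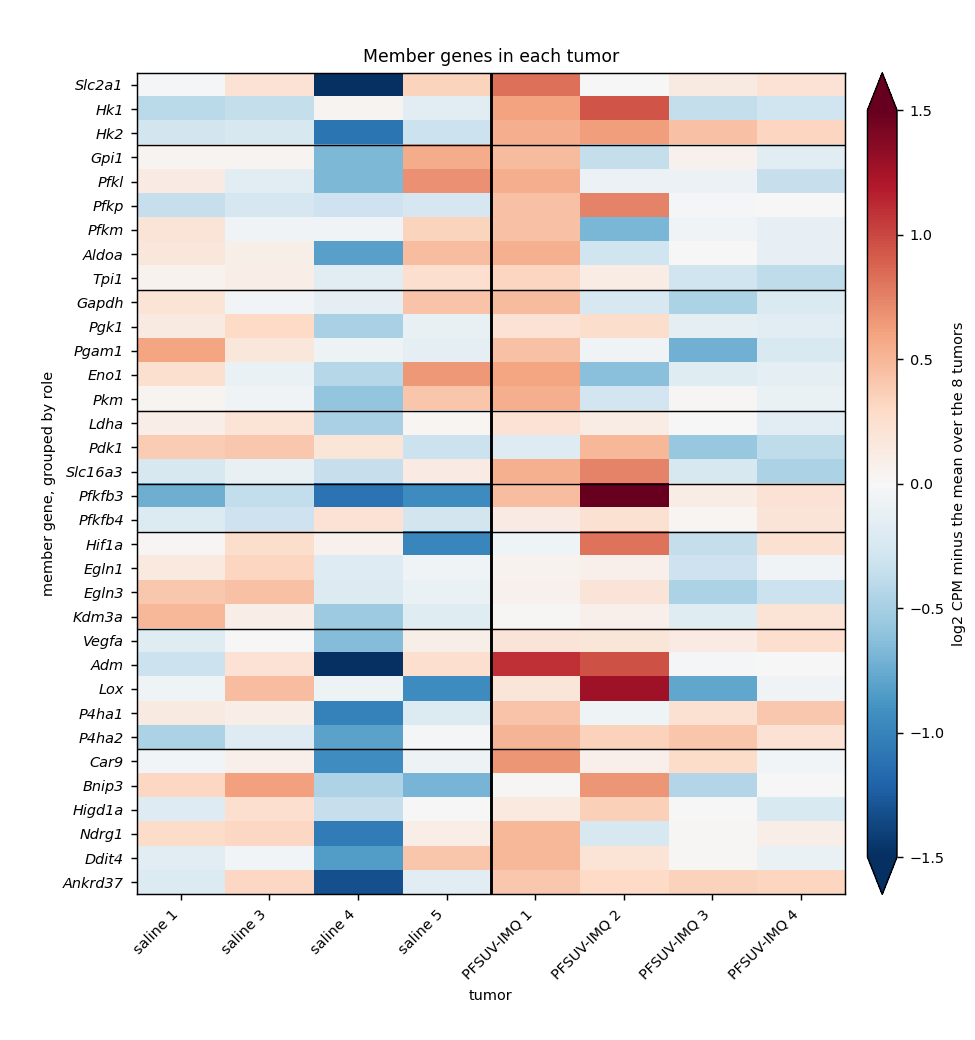
Level of each of the 34 genes (rows, grouped by role and separated by lines) in each of the 8 tumors (columns), as log2 normalized CPM minus the gene's mean over the tumors. Blue is below and red above that mean. Saline tumor 4 is the lowest tumor in 19 rows, and PFSUV-IMQ tumors 1 and 2 hold the highest value in 14 and 11 rows.

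All 34 members passed the filter on low counts. Hexokinase 2 (Hk2) was the 1 member called higher after PFSUV-IMQ at an adjusted p under 0.05 (edgeR quasi-likelihood test, Benjamini-Hochberg over all tested genes), and none was called lower. Over all 15998 tested genes, 2.46% were called higher and 0.219% lower. At an unadjusted p under 0.05, 4 members (Hk2, P4ha2, Pfkfb3 and Pfkp) were higher and 0 lower, beside 8.34% and 4.65% of all genes. The 4 PFSUV-IMQ tumors lay entirely above the 4 saline tumors for 5 members, those 4 and Vegfa, against 6.00% of all genes, and entirely below them for 0 members, against 3.28%. In the remaining 29 members the groups overlapped. The log2 fold change was positive in 24 members and negative in 10, with a median of 0.13 over members and -0.03 over all tested genes.

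For 22 of 34 members (64.7%) the 95% interval of the change lay within a 2-fold change in either direction, as it did for 59.5% of all genes. The direction counts leaned on saline tumor 4. Without it 17 members were positive and 17 negative, with a median of -0.01, and without both it and PFSUV-IMQ tumor 2 the split was 16 to 18 and the median -0.06. Scaling by total counts alone, which moved the median of all genes from -0.03 to -0.17, gave 16 positive and 18 negative members and a median of -0.01.

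**Figure D2:**
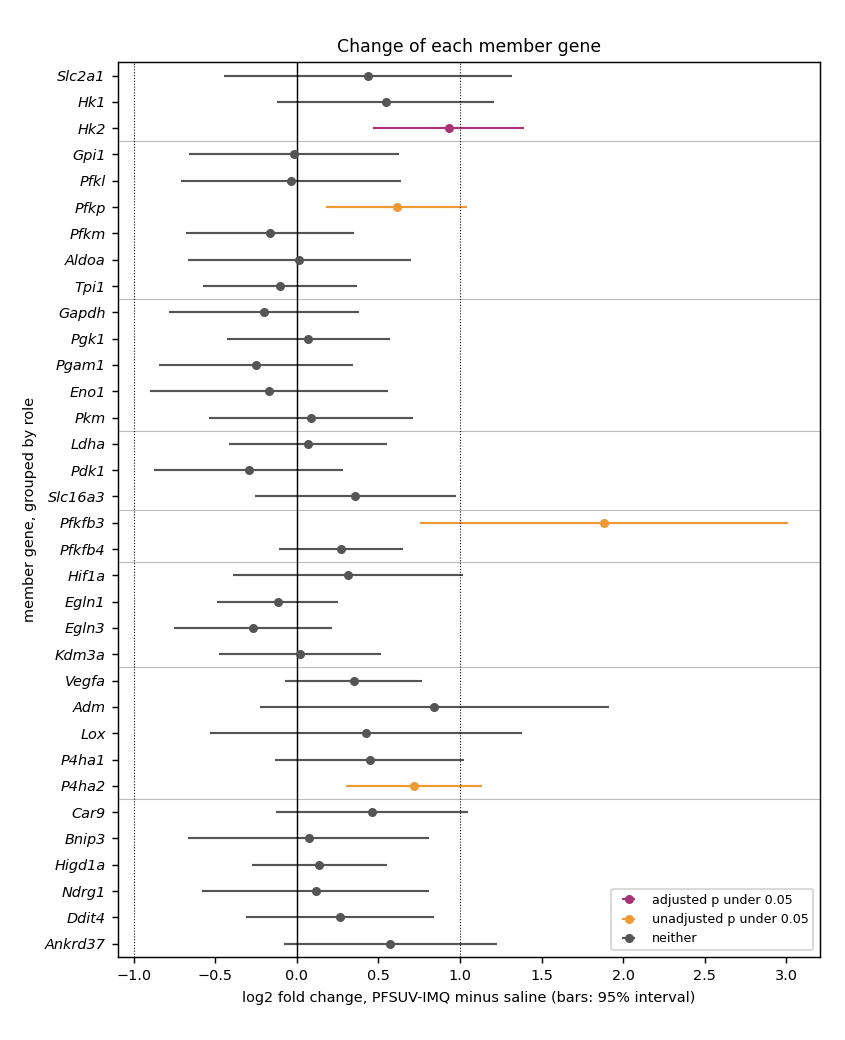
Log2 fold change of each of the 34 genes, PFSUV-IMQ minus saline (n = 4 tumors each), with 95% intervals from the edgeR fit and dotted lines at a 2-fold change. Hk2 at 0.93 passed the adjusted threshold, while the intervals of P4ha2, Pfkfb3 and Pfkp also lay above 0 and the remaining 30 intervals crossed it.

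Of the 3 genes of glucose entry and capture, 1 was called higher and the other 2 had positive changes. Hk2 (chr6:82725025-82774454) encodes an inducible hexokinase bound to mitochondria that phosphorylates glucose and is scarce in normal hepatocytes. It measured 110, 112, 62.4 and 107 CPM in saline tumors 1, 3, 4 and 5, and 194, 206, 180 and 166 CPM in PFSUV-IMQ tumors 1 to 4. The groups did not overlap, and saline tumor 4 was well below the other 3 saline tumors. The means were 98.0 ± 23.9 CPM and 187 ± 17.1 CPM (SD, n = 4), a log2 fold change of 0.93 (SE 0.21, 95% interval 0.46 to 1.39) and an edgeR adjusted p = 0.0497. That call was marginal, since leaving out any 1 of the 8 tumors ended it, with edgeR adjusted p from 0.0606 (without saline tumor 4) to 0.142 (without PFSUV-IMQ tumor 3). Across those 8 fits the log2 fold change was 0.76 to 1.00.

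Slc2a1, the gene of the widely expressed glucose transporter GLUT1 and a common marker of hypoxic cells, measured 282, 334, 88.1 and 363 CPM in the saline tumors and 507, 286, 316 and 334 CPM in the PFSUV-IMQ tumors. The groups overlapped, with saline tumor 4 lowest and PFSUV-IMQ tumor 1 highest. Its log2 fold change of 0.44 (95% interval -0.45 to 1.32, edgeR adjusted p = 0.746) dropped to 0.14 without saline tumor 4. Hk1, the constitutive hexokinase, gave 30.9, 31.9, 42.2 and 36.4 CPM against 62.1, 78.8, 32.0 and 33.4 CPM. Only PFSUV-IMQ tumors 1 and 2 stood above the saline range, and its log2 fold change was 0.54 (edgeR adjusted p = 0.514), or 0.25 without PFSUV-IMQ tumor 2.

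**Figure D3:**
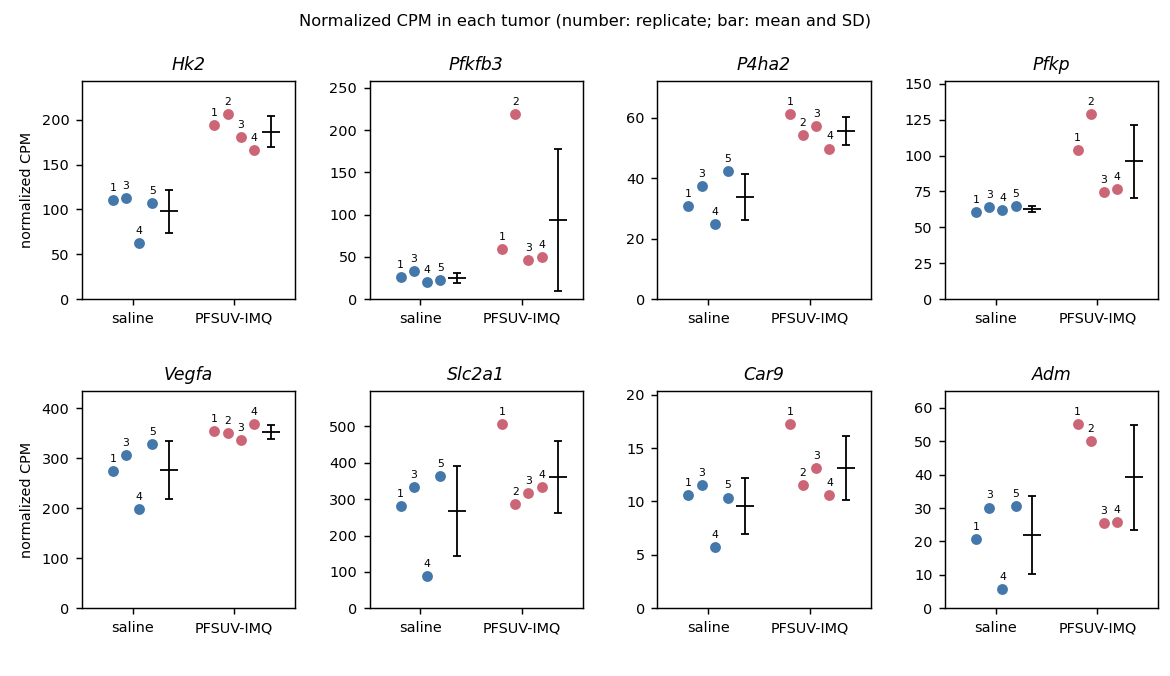
Normalized CPM (vertical axes from 0) of 8 members in each tumor, saline in blue and PFSUV-IMQ in red, with replicate numbers above the points and the group mean and SD beside them. Hk2, Pfkfb3, P4ha2, Pfkp and Vegfa show no overlap between groups, and Slc2a1, Car9 and Adm do.

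In upper glycolysis, from glucose 6-phosphate to the triose phosphates, no gene was called, and 4 of 6 members had negative changes. Pfkp, the platelet-type phosphofructokinase of the committed step, had the largest change of this group. It was tight in saline tumors at 60.3, 64.4, 61.9 and 64.6 CPM and measured 104, 129, 74.8 and 76.4 CPM after PFSUV-IMQ. The groups did not overlap, the log2 fold change was 0.61 (95% interval 0.18 to 1.05), and the edgeR adjusted p was 0.174. Saline tumor 4 did not stand out for this gene, whose change was 0.60 without it and 0.42 without PFSUV-IMQ tumor 2. The other 5 members of the step (Gpi1, Pfkl, Pfkm, Aldoa and Tpi1) had log2 fold changes of -0.16 to 0.02, with all 5 intervals within a 2-fold change.

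In lower glycolysis, from glyceraldehyde 3-phosphate to pyruvate, all 5 members (Gapdh, Pgk1, Pgam1, Eno1 and Pkm) had overlapping groups, log2 fold changes of -0.25 to 0.09, intervals within a 2-fold change and edgeR adjusted p of 0.784 or more. Gapdh, which makes the NADH of the pathway and is often used as a reference gene, measured 1544, 1303, 1220 and 1803 CPM in saline tumors and 1859, 1136, 962 and 1148 CPM after PFSUV-IMQ. The highest and the lowest value both fell in the PFSUV-IMQ group, and the log2 fold change was -0.20 (95% interval -0.78 to 0.38). Reads of this group are hard to assign, because 72.2% of the 50-base words of Eno1 (mainly in Eno1b), 68.0% of Pgk1 (mainly in Pgk1-rs7), 41.5% of Pgam1, 34.4% of Pkm and 27.2% of Gapdh also occur in other annotated genes. Their levels are uncertain to the extent that counting split or dropped such reads.

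None of the 3 genes that handle pyruvate and lactate was called. Ldha, whose enzyme reduces pyruvate to lactate, measured 1506, 1620, 1004 and 1434 CPM in saline tumors and 1641, 1526, 1404 and 1265 CPM after PFSUV-IMQ. Its log2 fold change was 0.07 (95% interval -0.42 to 0.55), and the sign was negative with upper-quartile scaling, with total counts alone and without saline tumor 4. Pdk1, a mitochondrial kinase that inhibits pyruvate dehydrogenase, had the most negative change of all 34 members, -0.30 (95% interval -0.88 to 0.29, edgeR adjusted p = 0.736). It ran at 78.8, 80.3, 68.9 and 48.4 CPM against 53.0, 85.2, 40.8 and 46.3 CPM, with PFSUV-IMQ tumor 2 the highest of all 8, and the change was -0.58 without that tumor. Slc16a3, encoding the lactate exporter MCT4, spanned 27.2 to 37.7 CPM and 24.9 to 57.9 CPM, with a log2 fold change of 0.36 (edgeR adjusted p = 0.681), or 0.12 without PFSUV-IMQ tumor 2.

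The bifunctional enzymes of the PFKFB family set the level of fructose 2,6-bisphosphate, a strong activator of phosphofructokinase, and PFKFB3 is the isoenzyme with the highest ratio of kinase to phosphatase activity. Pfkfb3 (chr2:11471433-11554077) had the largest change of the 34 members. Saline tumors 1, 3, 4 and 5 measured 25.8, 33.2, 19.9 and 22.4 CPM, and PFSUV-IMQ tumors 1 to 4 measured 59.1, 219, 46.2 and 49.95 CPM. PFSUV-IMQ tumor 2 stood far above the rest, and the other 3 PFSUV-IMQ tumors still lay above every saline tumor. With all 8 tumors the log2 fold change was 1.88 (SE 0.50, 95% interval 0.76 to 3.01) and missed the threshold (edgeR adjusted p = 0.102). Without PFSUV-IMQ tumor 2 the log2 fold change was smaller, 1.01, and passed it (edgeR adjusted p = 0.0428). The other 7 fits that left out 1 tumor missed the threshold (edgeR adjusted p 0.0947 to 0.238). Without both saline tumor 4 and PFSUV-IMQ tumor 2, Pfkfb3 had a log2 fold change of 0.91 and also missed it (edgeR adjusted p = 0.0752). Its paralog Pfkfb4 measured 15.1 to 21.8 CPM in saline tumors and 19.1 to 21.9 CPM in treated ones. Its log2 fold change was 0.27 (edgeR adjusted p = 0.592), and here saline tumor 4 was the highest saline tumor.

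None of the 4 genes of the HIF subunit and its oxygen sensors was called, and 2 changes were positive and 2 negative. Hif1a, the oxygen-regulated subunit, measured 111, 131, 115 and 55.5 CPM in saline tumors and 105, 193, 85.4 and 128 CPM after PFSUV-IMQ. Saline tumor 5 was lowest and PFSUV-IMQ tumor 2 highest. The log2 fold change was 0.31 (95% interval -0.39 to 1.02, edgeR adjusted p = 0.774), and 0.03 without PFSUV-IMQ tumor 2. Egln3, a prolyl hydroxylase that HIF itself induces, ran from 33.3 to 51.8 CPM in saline tumors and from 27.7 to 43.7 CPM in treated tumors. The log2 fold change was -0.27 (95% interval -0.76 to 0.22, edgeR adjusted p = 0.707), and -0.51 without saline tumor 4 and PFSUV-IMQ tumor 2. For Egln1 and for Kdm3a, a histone demethylase induced by HIF, the intervals lay within a 2-fold change.

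The angiogenic and matrix targets had 5 positive changes of 5, none of them called, with a median of 0.45. P4ha2, a catalytic subunit of the prolyl 4-hydroxylase that modifies collagen, measured 30.8, 37.5, 24.7 and 42.3 CPM in saline tumors and 61.1, 54.4, 57.2 and 49.8 CPM in PFSUV-IMQ tumors. The groups did not overlap, and the log2 fold change of 0.72 (95% interval 0.30 to 1.14, edgeR adjusted p = 0.0944) was 0.59 without saline tumor 4. Vegfa, the main angiogenic growth factor, measured 274, 307, 198 and 329 CPM against 354, 350, 337 and 369 CPM. These groups did not overlap either, with a gap of 329 to 337 CPM, and the log2 fold change was 0.35 (95% interval -0.08 to 0.77, edgeR adjusted p = 0.512), or 0.21 without saline tumor 4. P4ha1, another catalytic subunit, had a log2 fold change of 0.45 (edgeR adjusted p = 0.552), or 0.25 without saline tumor 4.

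Adm encodes adrenomedullin, a vasodilator peptide. It measured 20.6, 30.1, 5.80 and 30.7 CPM in saline tumors and 55.2, 50.1, 25.6 and 25.7 CPM after PFSUV-IMQ. Its log2 fold change of 0.84 (95% interval -0.23 to 1.91, edgeR adjusted p = 0.537) was 0.52 without saline tumor 4, where it lay at 0.213 times the mean of the other saline tumors. Lox, a collagen cross-linking enzyme, spanned 28.2 to 74.7 CPM in saline tumors and 31.7 to 61.5 CPM in PFSUV-IMQ tumors 1, 3 and 4, with 131 CPM in PFSUV-IMQ tumor 2. Summed levels of 8 fibroblast markers, all detected, were 2437 to 3340 CPM in saline tumors and 3026 to 8118 CPM in PFSUV-IMQ tumors, with PFSUV-IMQ tumor 1 the highest. Collagen genes made up most of that sum, with Col1a1 at 3913 CPM, Col1a2 at 2111 CPM and Col3a1 at 1692 CPM. Dcn (144 CPM) and Lum (40.8 CPM) were lower there than in PFSUV-IMQ tumor 2 (319 and 67.3 CPM), and the other fibroblast markers were highest in PFSUV-IMQ tumor 1. PFSUV-IMQ tumor 1 also had the highest P4ha2, P4ha1 and Adm, as it did for 14 of all 34 members. Lox was highest in PFSUV-IMQ tumor 2 and Vegfa in PFSUV-IMQ tumor 4. Endothelial markers summed to 121 to 206 CPM and 101 to 161 CPM. The part of these cell types in the angiogenic and matrix values was not tested.

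The last 6 members act in pH control, mitochondria and stress, and all 6 had positive changes with overlapping groups. Car9, carbonic anhydrase IX of the cell surface, is a widely used hypoxia marker. It measured 10.6, 11.5, 5.71 and 10.4 CPM in saline tumors and 17.3, 11.5, 13.2 and 10.6 CPM after PFSUV-IMQ. The log2 fold change was 0.46 (95% interval -0.13 to 1.05, edgeR adjusted p = 0.544), and 0.27 without saline tumor 4. Ankrd37, a small HIF target, measured 16.3, 23.3, 7.52 and 16.9 CPM against 24.8, 23.1, 23.9 and 23.4 CPM, with a log2 fold change of 0.57 (95% interval -0.08 to 1.23, edgeR adjusted p = 0.469), or 0.34 without saline tumor 4. The PFSUV-IMQ tumors were nearly equal, and saline tumor 3 fell among them. Of its exon bases, 26.4% overlap genes on the other strand, and the strand setting of the counting is not given in the sources used here. The remaining 4 (Bnip3, Higd1a, Ndrg1 and Ddit4) had log2 fold changes of 0.07 to 0.26.

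Levels of different genes were compared per kilobase of exon. Exon length here joins the exons of all annotated transcripts of a gene, so the order of genes depends partly on the annotation. Aldoa stood at the top with 475 ± 155 CPM per kb in saline tumors and 480 ± 127 CPM per kb after PFSUV-IMQ (SD, n = 4), followed by Ldha at 420 ± 81.3 and 441 ± 48.8 CPM per kb. In saline tumors the means of neighbours among the 6 most abundant genes (Aldoa, Ldha, Gapdh, Pkm, Eno1 and Pgk1) differed by less than the larger SD of each pair. At the bottom were Pfkfb4 at 3.51 ± 0.642 and 4.24 ± 0.260 CPM per kb and Pfkfb3 at 3.35 ± 0.764 and 12.4 ± 11.1 CPM per kb. The members with the smallest p-values (Hk2, P4ha2, Pfkfb3 and Pfkp) ranked 20, 29, 34 and 30 of 34 by saline level.

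**Figure D4:**
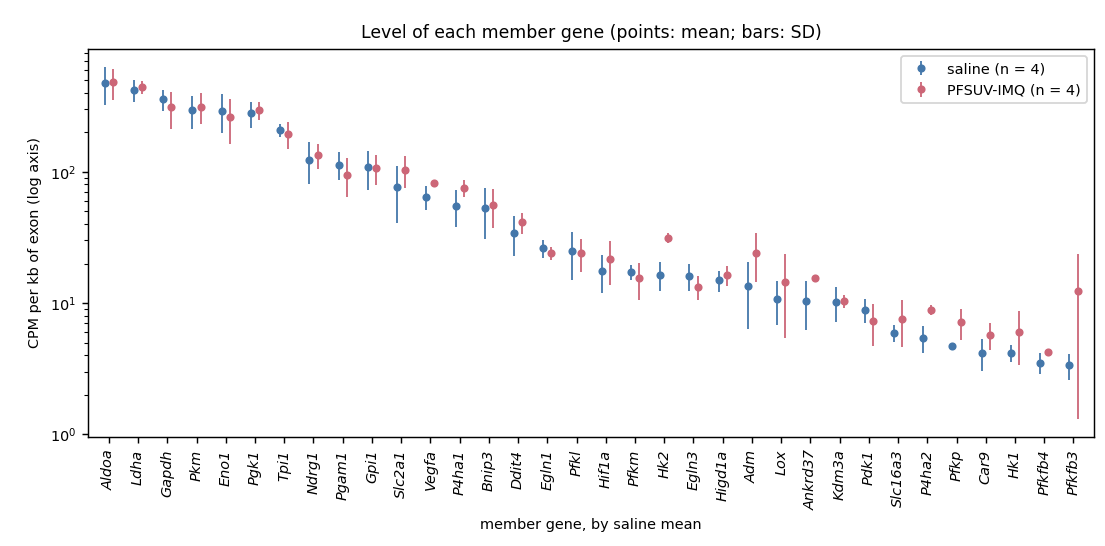
Mean level of each member in CPM per kb of exon (log axis) in saline (blue) and PFSUV-IMQ (red) tumors, ordered by the saline mean, with SD bars (n = 4 each). Levels run from 475 CPM per kb (Aldoa) to 3.35 CPM per kb (Pfkfb3) in saline tumors, and the SD bars do not meet for Hk2, P4ha2, Pfkp, Vegfa and Ankrd37.

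The spread between tumors of a group was somewhat wider for these genes than for most. The median within-group SD of log2 CPM was 0.405 for members and 0.338 for all tested genes, and 22 of 34 members lay above the latter. Adm (0.88), Pfkfb3 (0.77) and Lox (0.72) were the most variable, and Pfkfb4 (0.18) the least.

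Because several of these enzymes have liver counterparts, the share of 1 isoenzyme within its family, per kilobase of exon, was compared tumor by tumor for 7 families, of which 5 are given here. The share needs no scaling between tumors. Pfkfb3 made up 38.3, 47.1, 25.3 and 38.8% of the 4 Pfkfb genes in saline tumors and 58.9, 75.2, 50.5 and 51.5% in PFSUV-IMQ tumors, without overlap. The difference of 21.6 percentage points had p = 0.0286 in an exact two-sided permutation test, the smallest that 4 against 4 tumors can give, and adjusted p = 0.1 over the 7 families. It was 12.2 without saline tumor 4 and PFSUV-IMQ tumor 2. Ldha took 99.2% of Ldha plus Ldhb in saline and 99.6% in PFSUV-IMQ tumors, with no overlap, and the same exact permutation p and adjusted p. The Ldha difference of 0.40 percentage points was 0.25 without saline tumor 4. Neither share passed the threshold once adjusted.

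The Pfkp share was 10.5 ± 2.47% of phosphofructokinase in saline and 15.7 ± 4.99% in PFSUV-IMQ tumors (SD, n = 4, exact permutation p = 0.0857, adjusted p = 0.2). PFSUV-IMQ tumor 2 lay at 23.1% and the other treated tumors at 12.2 to 14.7%, and without it the difference fell from 5.25 to 2.81 percentage points. The size of the Pfkp share depends on the joined exon lengths, which were 13401 bases for Pfkp, 6675 for Pfkl and 3340 for Pfkm. Without that division the mean saline levels of these genes were 62.8, 165 and 57.8 CPM. Slc2a1 made up 93.5, 89.7, 47.8 and 97.8% of Slc2a1, Slc2a2 and Slc2a3 together in saline tumors and 98.1, 81.7, 96.2 and 95.1% in PFSUV-IMQ tumors, with an exact permutation p = 0.543 (adjusted p = 0.76). The difference of 10.5 percentage points was -0.93 without saline tumor 4. Saline tumor 4 and PFSUV-IMQ tumor 2, the tumors with most hepatocyte RNA, had the lowest Slc2a1 share of their groups, where the liver transporter gene Slc2a2 is the main other member, and the part of hepatocyte RNA in the share was not tested. Pdk1 held 31.2 ± 3.83% of the 4 Pdk genes in saline and 30.8 ± 5.75% in PFSUV-IMQ tumors (SD, n = 4, exact permutation p = 0.886, adjusted p = 0.943).

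**Figure D5:**
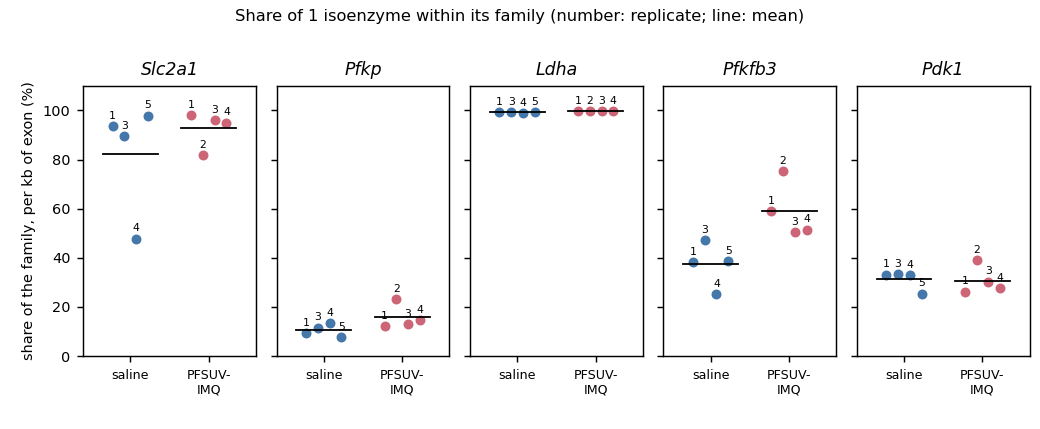
Share of 1 isoenzyme in its family, in percent of the family's CPM per kb, for 5 families in each tumor, saline in blue and PFSUV-IMQ in red, with replicate numbers and a line at each mean. Saline tumor 4 and PFSUV-IMQ tumor 2 lie lowest in their groups for Slc2a1, and the Ldha and Pfkfb3 shares do not overlap between groups.

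Other genes of the pathway were read from lists of 4 kinds. Of 27 tested isoenzymes and carriers outside the members, 9 changes were positive and 18 negative. None was called by edgeR, beside 2.46% of all genes higher and 0.219% lower. At an unadjusted p under 0.05, 1 was higher and 2 lower, beside 8.34% and 4.65% of all genes. These were Hk3, a hexokinase of myeloid cells, with a log2 fold change of 1.21 (edgeR adjusted p = 0.157), Ldhb, the heart-type lactate dehydrogenase, at -0.87 (edgeR adjusted p = 0.145) and Pdk2, a pyruvate dehydrogenase kinase, at -1.004 (edgeR adjusted p = 0.271), or -0.65 without saline tumor 4. Hk3 measured 13.6 to 21.6 CPM in saline tumors and 34.4, 74.8, 24.03 and 24.9 CPM after PFSUV-IMQ. The summed level of 7 neutrophil markers was also highest in PFSUV-IMQ tumor 2, at 156 CPM, against 17.8 to 61.7 CPM in saline and 34.5 to 51.1 CPM in the other PFSUV-IMQ tumors. Saline tumor 5 had the sum of 61.7 CPM but the lowest Hk3 of the 8 tumors, at 13.6 CPM. All 6 tested neutrophil markers had positive changes. Of these, 2 had an unadjusted p under 0.05, beside 8.34% of all genes higher, and 0 were called by edgeR, beside 2.46%. Ly6g, a defining neutrophil gene, was near 0 throughout, at 0 to 0.489 CPM in saline tumors, 0.0558 to 0.441 CPM in the other PFSUV-IMQ tumors and 1.258 CPM in PFSUV-IMQ tumor 2. Without PFSUV-IMQ tumor 2 the log2 fold change of Hk3 was 0.69, and the part of neutrophils in it was not tested.

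Of 7 tested gluconeogenic genes all changes were positive and 0 were called by edgeR, beside 2.46% of all genes higher. At an unadjusted p under 0.05, 1 was higher, beside 8.34% of all genes. That was Pck1, the cytosolic PEP carboxykinase of liver, with a log2 fold change of 2.02 (95% interval 0.06 to 3.97, edgeR adjusted p = 0.363), or 1.15 without PFSUV-IMQ tumor 2 and 2.86 without saline tumor 4. It measured 53.8, 117, 255 and 11.5 CPM against 136, 1035, 299 and 302 CPM, and was highest in each group in the tumor with the most hepatocyte RNA. G6pc, the glucose 6-phosphatase of liver, had a log2 fold change of 0.96 with an interval of -1.38 to 3.305. It was 2.82 without saline tumor 4 and 0.26 without PFSUV-IMQ tumor 2. Of 19 tested genes of HIF signalling outside the members, 0 were called by edgeR. At an unadjusted p under 0.05, 1 was higher, beside 8.34% of all genes. That gene was Siah2, of a ubiquitin ligase (0.35, edgeR adjusted p = 0.385). Crebbp (0.29) and P4ha3 (0.52, or 0.27 without PFSUV-IMQ tumor 2) followed it.

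Among 45 further genes known to respond to hypoxia, 4 were called higher and 0 lower, beside 2.46% and 0.219% of all genes. At an unadjusted p under 0.05, 13 were higher and 1 lower, beside 8.34% and 4.65% of all genes. The list was chosen with earlier results of these data known, so these counts are no test of a hypoxia response. Of the called genes, 3 are described here. Mafk, a small Maf transcription factor, rose from 32.5 ± 4.22 to 86.9 ± 12.9 CPM (SD, n = 4, log2 fold change 1.42, edgeR adjusted p = 0.00243). Ctgf, a matricellular growth factor gene, rose from 34.9 ± 4.93 to 135 ± 66.4 CPM (1.95, edgeR adjusted p = 0.0094), with PFSUV-IMQ tumor 2 at 234 CPM. Both calls held without any 1 tumor.

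Nos2, the inducible nitric oxide synthase, measured 7.005, 11.1, 5.41 and 8.09 CPM in saline tumors and 64.4, 388, 29.3 and 35.7 CPM after PFSUV-IMQ. Its log2 fold change of 4.03 (edgeR adjusted p = 0.0389) was 2.43 without PFSUV-IMQ tumor 2 (edgeR adjusted p = 0.00441), and the call was lost without saline tumor 1, 3, 4 or 5 (edgeR adjusted p 0.0864 to 0.129). The groups did not overlap for Mafk, Ctgf or Nos2.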

How the data were processed

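Tumor mRNA was sequenced for 8 samples. As deposited by the authors, the count table holds whole reads per gene with no normalization, and per the labels the tools were CASAVA, FastQC, MultiQC, Trimmomatic 0.38, HISAT2 2.1.0 and featureCounts 2.0.0, whereas the study's methods name TopHat and HTSeq. The authors also deposited signal values, the counts divided by 1 size factor per tumor from DESeq2, and here they served only for gene symbols. All 55536 gene identifiers are in GENCODE M21 (GRCm38), which gave coordinates and exon lengths. The genome build, the strand setting of the counting and any sequencing batch are not given in the sources used here.

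Counts were tested with edgeR 4.0.16 in R 4.3.3 (TMM scaling, its default filter on low counts, quasi-likelihood test, no covariate). P-values of the 15998 genes that passed the filter were adjusted together by Benjamini-Hochberg, and a change counted as called below 0.05, the threshold of the study's methods. CPM were scaled by the same TMM factors. For isoenzyme shares the test was an exact permutation over all splits of 4 against 4 tumors (two-sided, scipy 1.17.1), and motifs were searched in Python 3.11.15. One member symbol, Aldoa, has 2 rows, of which the protein-coding row with more counts was used. Alternatives were DESeq2 1.42.0 size factors, upper-quartile or total-count scaling, other filters, the Wald test of DESeq2, the exact test of edgeR, a limit on the fold change, a replicate block and each tumor left out. The fit without saline tumor 4 and PFSUV-IMQ tumor 2, and the fit of 6 tumors with no block, were added after seeing the data. The test was tried on simulated counts. With the spread estimated from these tumors it called 20 of 97 genes (20.6%) given a log2 fold change of 1 in size. For a size of 2 it called 78 of 103 (75.7%). With an assumed low spread it called 77 of 97 (79.4%) at a size of 1. A gene not called is therefore not shown to be unchanged.

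The members and gene lists were chosen with earlier results of these data known. The members named with values are 11 set by role, those called, and the 12 with the smallest p. In each other pathway list these are the called genes and the 3 with the smallest p, and of cell types the defining markers. Intervals reflect the spread between tumors. Values of some genes, and shares that need them, are not reported here.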

Additional observations from a re-analysis of the deposited data

Results flagged for a closer look

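In 10 of 108 groups of 4 tumors examined, the highest or the lowest tumor stood apart by Dixon's test at 95%, where chance alone gives about 1 in 20. Saline tumor 4 and PFSUV-IMQ tumor 2 account for 4 each and saline tumor 5 for 2. In saline tumor 4, Hk2 was low at 62.4 CPM (nearest saline tumor 107), Pfkfb4 was high at 21.8 CPM (nearest 16.2), and the share of Slc2a1 in its family (47.8%, nearest 89.7%) and of Ldha in lactate dehydrogenase (98.8%, nearest 99.3%) were low. PFSUV-IMQ tumor 2 was high in Pfkfb3 (219 CPM, nearest 59.1), Nos2 (388 CPM, nearest 64.4), Ctgf (234 CPM, nearest 105.0) and Pdk2 (15.8 CPM, nearest 7.56). In saline tumor 5, G6pc3, a widely expressed glucose 6-phosphatase gene, was high at 32.3 CPM (nearest 18.3), and the share of Pdk1 among the pyruvate dehydrogenase kinases was low at 25.5% (nearest 32.8%).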

How the results depend on the processing

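The count of members called higher was 1 (Hk2) and became 0 with DESeq2 size factors, upper-quartile or total-count scaling, at least 10 counts in every tumor, a fold limit, or without saline tumor 4 and PFSUV-IMQ tumor 2. With no filter it was 1, but the gene was Pfkfb3. It was 3 (Hk2, P4ha2, Pfkfb3) by the DESeq2 Wald test and 2 (Hk2, Pfkfb3) by the edgeR exact test. These called 911 and 737 genes in both directions, against 429. Of all genes each tested, 3.72% and 3.92% were called higher, against 2.46%. Hk2 had adjusted p from 0.00842 to 0.142 and log2 fold changes from 0.69 to 1.00 over all alternatives. Without each tumor in turn the counts were 0 to 1 for members called higher, 2 to 3 (from 4) for other pathway genes called higher and 0 to 1 for those called lower, with 214 to 429 genes called in all. The other pathway genes called lower numbered 1 (Ldhb) by the Wald test and 1 (Pdk2) without saline tumor 4 and PFSUV-IMQ tumor 2, from 0.

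Replicate numbers 1, 3 and 4 occur in both groups, and deviations of tumors with the same number correlated at 0.29, -0.27 and -0.32. With mixed signs, these correlations cannot settle whether the numbers pair tumors. The fit with a replicate block over those 6 tumors called 3 members higher (Hk2, P4ha2, Pfkfb3), 4 other pathway genes lower and 859 genes in all. Of all genes it tested, 3.16% were called higher and 2.14% lower. The same 6 tumors with no block gave 2 members higher (P4ha2, Pfkfb3), 1 lower (Pdk1), 3 other pathway genes lower and 771 in all. Of all genes, 3.29% were called higher and 1.46% lower in that fit. Hif1a was -0.19 with the block and -0.18 without it, and G6pc -0.11 without it. Ldha changed sign with upper-quartile (-0.0035) and total-count scaling (-0.072), and without saline tumor 4 and PFSUV-IMQ tumor 2 (-0.11), and was -0.062 to 0.148 without each tumor in turn. Differences in shares that changed sign were those of Slc2a1 (-0.93 to 15.8 percentage points without each tumor in turn) and Pdk1 (-3.19 to 1.07, and 0.17 with no division by exon length). The cause of these shifts was not tested. With 4 tumors per group, no isoenzyme share could reach an exact p under 0.0286, and with 3 against 4 none under 0.0571.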

Other observations

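Markers of other cell types in the same tumors were read for context. The 9 macrophage markers summed to 1780 to 2690 CPM in saline tumors and 1202 to 2488 CPM in PFSUV-IMQ tumors. All 9 changes were negative, and 1 was called lower, beside 0.219% of all genes. That was Vsig4, a marker of resident liver macrophages (log2 fold change -1.62, edgeR adjusted p = 0.0453). The general macrophage markers Adgre1 (-0.42), Csf1r (-0.75) and C1qa (-0.01) were not called (edgeR adjusted p = 0.793, 0.388 and 0.993). The 7 T cell markers summed to 123 to 199 CPM and 114 to 192 CPM, with 0 called by edgeR and 0 at an unadjusted p under 0.05. Erythroid genes summed to 132 to 306 CPM and 52.6 to 139 CPM. At an unadjusted p under 0.05, 3 of 4 tested were lower, beside 4.65% of all genes, and 0 were called by edgeR.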
